A study of Homo sapiens with 6 samples.

Results

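The 10 genes of a TRAIL pathway list were followed through a stepwise model of cell transformation. They are the ligand TNFSF10 (TRAIL), the death receptors TNFRSF10A (DR4) and TNFRSF10B (DR5), the decoy receptors TNFRSF10C (DcR1), TNFRSF10D (DcR2) and TNFRSF11B (osteoprotegerin), the adaptor FADD, the initiator caspases CASP8 and CASP10, and the caspase-8 inhibitor CFLAR (c-FLIP). Members were chosen by name, and each was read from the probe set that lists its symbol alone and has the highest mean over the 6 arrays. Of the 10 members, 9 had such a probe set, out of 18417 genes compared. TNFRSF10C was listed only on a probe set that names a second gene as well, so it has no value here.

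RNA was measured on Affymetrix Gene ST arrays, with 2 biological replicates for each of 3 near isogenic human lines that are stages of a stepwise series. BJ are primary foreskin fibroblasts with no introduced gene. BJEL cells derive from BJ, carry hTERT, a telomerase component, with the SV40 early region with large T and small t antigen, and were kept in G-418 and hygromycin. BJELM cells were made in turn from BJEL by retroviral transfer of pBabe-MYC-ER, a MYC fused to an estrogen receptor domain, and grew in G-418, hygromycin, puromycin and, without interruption, 4-hydroxytamoxifen. The drugs therefore cannot be told apart from the introduced genes, and nothing in the descriptions says whether the replicates were separate cultures, so that p-values measure the spread between arrays. The study tested these lines for TRAIL sensitivity, and the arrays allow the question of whether RNA of the pathway differed between the stages.

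TRAIL is a ligand of the TNF superfamily that binds receptors on the cell surface. The death receptors carry an intracellular death domain that recruits FADD, which in turn gathers caspase-8 and caspase-10 into a signaling complex, and CFLAR competes with the caspases in that complex. Decoy receptors bind the ligand without passing on the death signal: TNFRSF10C lacks an intracellular part, TNFRSF10D has a truncated death domain, and TNFRSF11B is secreted and also binds RANKL. TNFSF10 is known as an interferon-inducible gene.

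Values are log2 signals, in which a difference of 1 is 2-fold, and each change is a log2 fold change ± SE, with its 95% interval where given. A gene is said to have risen or fallen where limma gave an adjusted p under 0.05 and the change was at least 2-fold. Array medians lay between 7.18 and 7.27. TERT, part of what was introduced, averaged 7.82 ± 0.076 for BJ, 10.84 ± 0.18 for BJEL and 10.81 ± 0.041 for the arrays labelled BJELM (SD, n = 2 each). MYC averaged 9.54 ± 0.098 for BJ, 10.17 ± 0.072 for BJEL and 9.24 ± 0.47 for the arrays labelled BJELM (SD, n = 2 each). Its mean was thus lowest on the arrays labelled BJELM, which would go against that label only if the MYC probes read the introduced MYC-ER transcript. Whether they do was not tested, so this signal does not show whether the construct was expressed and does not settle the label. Every value of this line below is one of the arrays labelled BJELM. Of 9 fibroblast markers, 9 lay at or above the median of the gene means in BJ, and 8 did so in BJEL and, likewise, 8 on the arrays labelled BJELM. Among markers of other cell types, 2 of 6 epithelial, 0 of 5 endothelial and 0 of 4 leukocyte genes did so in each line, the epithelial ones being the simple keratins KRT8 and KRT18.

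In BJEL against BJ, 1 member rose and 2 fell among the 9 measured. Of all genes 5.18% passed in either direction, 2.89% higher and 2.29% lower. The ligand TNFSF10 was the member that rose, and the decoys TNFRSF11B and TNFRSF10D were those that fell. In the arrays labelled BJELM against BJ, 0 members rose and 3 fell, namely TNFRSF11B, TNFRSF10D and CFLAR, where 8.79% of all genes passed, 4.09% higher and 4.70% lower. In the arrays labelled BJELM against BJEL, 0 members rose and 2 fell, TNFRSF11B and CFLAR, where 2.68% of all genes passed, 0.923% higher and 1.76% lower. The median change over the 9 members was -0.21, -0.14 and -0.19 in these comparisons, beside -0.02, 0.01 and 0.03 over all genes. In the same order, the arrays of both lines compared did not overlap for 6, 7 and 6 of the 9 members. Over all genes the shares without overlap were 61.2%, 60.5% and 52.8%, so a lack of overlap named below is common. In bulk RNA, fewer cells that express a gene and less of its RNA per cell cannot be told apart.

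**Figure D1:**
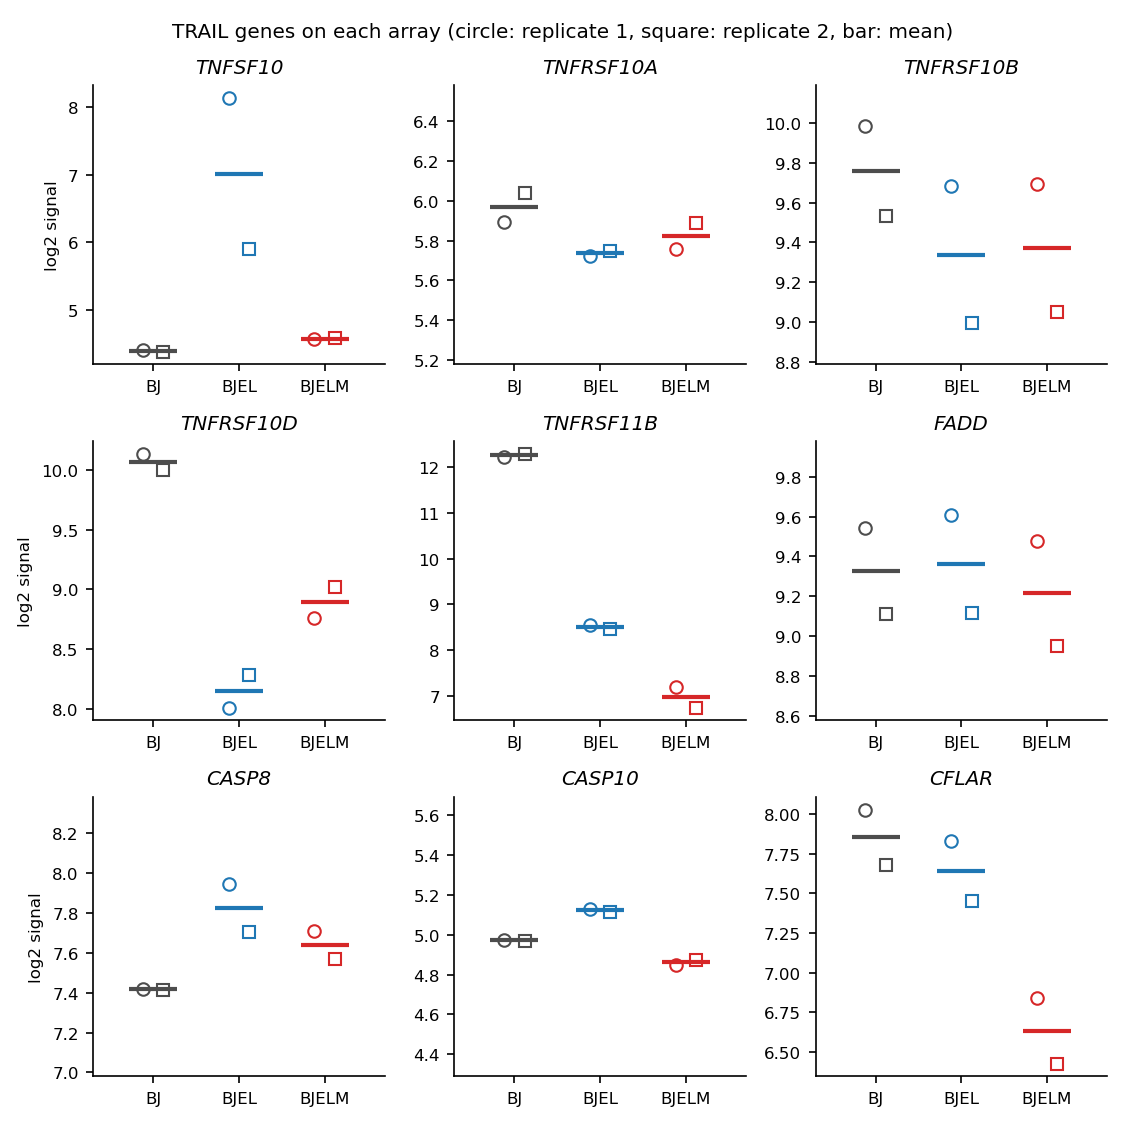
Log2 signal (vertical axis, a scale of its own for each gene) of the 9 measured TRAIL genes on the 6 arrays, by line (horizontal axis). Circles are replicate 1, squares replicate 2 and bars the mean of the 2 arrays. TNFRSF11B steps down through the stages to 6.98 on the arrays labelled BJELM, and the BJEL arrays lie far apart for TNFSF10, at 8.13 and 5.90.

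The ligand TNFSF10 (Entrez 8743, probe set 8092169) had signals of 4.41 and 4.39 in BJ, 8.13 and 5.90 in BJEL, and 4.57 and 4.59 on the arrays labelled BJELM. Both BJEL arrays thus stood above the other 4 arrays, but they differed from each other by 2.23. TNFSF10 rose 6.12-fold in BJEL against BJ (2.61 ± 0.64, interval 1.05 to 4.18, adjusted p = 0.0397). Its means in BJ and on the arrays labelled BJELM lay below 6, the group mean used as a filter in an alternative, and whether they stood above background was not tested, so this fold is a ratio of signals and not of RNA amounts. The call did not survive leaving out BJ replicate 1 (2.63, adjusted p = 0.157), leaving out BJ replicate 2 (2.60, adjusted p = 0.134), or leaving out either BJELM replicate (2.61, adjusted p = 0.0553). The change was 1.50 with BJEL replicate 1 left out (adjusted p = 0.00607) and 3.73 with BJEL replicate 2 left out (adjusted p = 0.000688), so that either BJEL array moved the fold by over 1.5 times. In both of these fits the lone BJEL array is assumed to vary like the other lines, and the SE was 0.107 because the gap between the BJEL arrays no longer entered, so they say nothing about stability. The arrays labelled BJELM differed from BJ by 0.18 ± 0.64 (interval -1.39 to 1.75, adjusted p = 0.899). Against BJEL they stood at -2.44 ± 0.64 (interval -4.00 to -0.87, adjusted p = 0.0673), which did not pass. Under the same assumption about a lone array it was -1.32 without BJEL replicate 1 (adjusted p = 0.014) and -3.55 without BJEL replicate 2 (adjusted p = 0.00103).

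Over the 6 arrays and among the 9203 genes whose level reached the median of all, the genes whose pattern lay nearest to that of TNFSF10 were CMPK2 and PLSCR1, by the Euclidean distance between log2 signals after subtraction of each gene's mean (0.609 for CMPK2 and 0.984 for PLSCR1). CMPK2 encodes a mitochondrial nucleotide kinase, PLSCR1 encodes phospholipid scramblase 1, and both are known as interferon-inducible genes. CMPK2 had 9.75 and 8.21 in BJEL, against 6.67 and 6.66 in BJ. PLSCR1 had 10.92 and 10.01 in BJEL, against 7.80 and 7.55 in BJ. For all 3 genes BJEL replicate 1 was the highest array, and the arrays labelled BJELM lay close to BJ, at 6.47 and 6.60 for CMPK2 and at 7.98 and 7.75 for PLSCR1. This shared shape follows from the choice of CMPK2 and PLSCR1 by pattern.

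The 250 bases before the start of TNFSF10 and before 1 of the 2 listed starts of PLSCR1 are shown because both windows hold the core of the interferon-stimulated response element, searched as GAAA, any 2 bases and GAAA again, on both strands. RefSeq (GRCh38.p14) places the TNFSF10 window at chr3:172523431-172523680 and the PLSCR1 window at chr3:146544608-146544857, both on the minus strand, and they read 5′ to 3′ toward the start with the match in capitals.
TNFSF10: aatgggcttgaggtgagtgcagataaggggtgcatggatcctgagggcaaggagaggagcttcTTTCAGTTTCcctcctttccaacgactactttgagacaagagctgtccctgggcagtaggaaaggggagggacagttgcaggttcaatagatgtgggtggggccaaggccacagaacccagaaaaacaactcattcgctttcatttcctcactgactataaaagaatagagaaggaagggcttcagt
PLSCR1: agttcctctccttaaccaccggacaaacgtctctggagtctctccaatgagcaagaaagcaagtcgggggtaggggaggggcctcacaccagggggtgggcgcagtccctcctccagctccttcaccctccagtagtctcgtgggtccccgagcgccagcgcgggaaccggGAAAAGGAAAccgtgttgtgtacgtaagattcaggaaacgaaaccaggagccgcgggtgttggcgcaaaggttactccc
The match begins 187 bases before the start in TNFSF10, where it lies on the opposite strand, and 79 bases before it in PLSCR1. These letters occur in 3.02% of 35116 RefSeq windows of the same length, and the 3 windows of CMPK2 hold no match. A match describes the sequence and not the binding of a factor.

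Windows were looked up for the other members outside chromosome 8 too. The TNFRSF10 receptors and TNFRSF11B, which lie on chromosome 8, were thus not searched, and CASP10 had no window. This left 4 of the 10 members, with 9 windows in all, 4 of them of CFLAR and 3 of CASP8. Among these 4 members TNFSF10 alone held the response element core. The E-box CACGTG, the letters that MYC and MAX dimers are known to bind, was in 0 of these 9 windows, against 6.34% of all windows. The gamma-activated sequence TTCNNNGAA was in 1 of them, a window of CASP8, against 6.57%. The SP1 box GGGCGG was in 4 of them, against 42.6%. All were searched on both strands, and the absence of these letters says nothing of a factor outside the windows or of the members not searched.

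The death receptors did not pass the test in any comparison. TNFRSF10B (DR5, probe set 8149733), the receptor that the unfolded protein response is known to induce, had signals of 9.98 and 9.53 in BJ, 9.68 and 9.00 in BJEL, and 9.69 and 9.05 on the arrays labelled BJELM. The lines overlapped, and in each of them the array numbered 1 was higher than the array numbered 2. Its change was -0.42 ± 0.31 in BJEL (interval -1.17 to 0.33, adjusted p = 0.429) and, for the arrays labelled BJELM, -0.39 ± 0.31 (interval -1.13 to 0.36, adjusted p = 0.455), each against BJ.

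TNFRSF10A (DR4, probe set 8149762) had signals of 5.89 and 6.04 in BJ, 5.72 and 5.75 in BJEL, and 5.76 and 5.89 on the arrays labelled BJELM. The change was -0.23 ± 0.095 in BJEL (adjusted p = 0.166) and, for the arrays labelled BJELM, -0.14 ± 0.095 (interval -0.38 to 0.09, adjusted p = 0.359), each against BJ. Between the arrays labelled BJELM and BJEL it was 0.09 ± 0.095 (interval -0.14 to 0.32, adjusted p = 0.639). All 3 group means of TNFRSF10A lay below 6, and whether they stood above background was not tested.

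The decoy receptor TNFRSF10D (Entrez 8793, probe set 8149749), a membrane receptor that holds TRAIL without a working death domain, had signals of 10.14 and 10.01 in BJ, 8.01 and 8.28 in BJEL, and 8.76 and 9.02 on the arrays labelled BJELM. No line overlapped another, with BJ highest and BJEL lowest. TNFRSF10D fell 3.80-fold in BJEL against BJ (-1.93 ± 0.14, interval -2.27 to -1.59, adjusted p = 0.001). It fell 2.27-fold on the arrays labelled BJELM against BJ (-1.18 ± 0.14, interval -1.52 to -0.84, adjusted p = 0.0019). The arrays labelled BJELM stood above BJEL by 0.75 ± 0.14 (interval 0.41 to 1.08, adjusted p = 0.0243), a difference under the 2-fold minimum. Leaving out 1 array, the change ranged from -2.06 to -1.79 in BJEL and from -1.31 to -1.05 on the arrays labelled BJELM, each against BJ, and each kept its call.

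The secreted decoy TNFRSF11B (Entrez 4982, probe set 8152512), which fibroblasts and osteoblasts release and which also blocks RANKL in bone, showed the largest changes of the 9 members in both comparisons with BJ. The signals of TNFRSF11B were 12.22 and 12.29 in BJ, 8.56 and 8.47 in BJEL, and 7.21 and 6.75 on the arrays labelled BJELM. The lines did not overlap, and each stage was lower than the one before it. TNFRSF11B fell 13.4-fold in BJEL against BJ (-3.74 ± 0.16, adjusted p = 0.00022) and 38.8-fold on the arrays labelled BJELM against BJ (-5.28 ± 0.16, adjusted p = 5.74e-05). On the arrays labelled BJELM against BJEL it fell 2.90-fold (-1.54 ± 0.16, interval -1.92 to -1.15, adjusted p = 0.00482). Without 1 array these changes ranged from -3.79 to -3.70, from -5.51 to -5.05 and from -1.77 to -1.30, and all kept their calls. TNFSF11, which encodes RANKL, the other ligand of TNFRSF11B, was looked at for that role after its values were seen, and averaged 5.20 ± 0.018 for BJ, 5.21 ± 0.027 for BJEL and 5.21 ± 0.063 for the arrays labelled BJELM (SD, n = 2 each). These means of TNFSF11 lay below 6, and whether they stood above background was not tested.

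**Figure D2:**
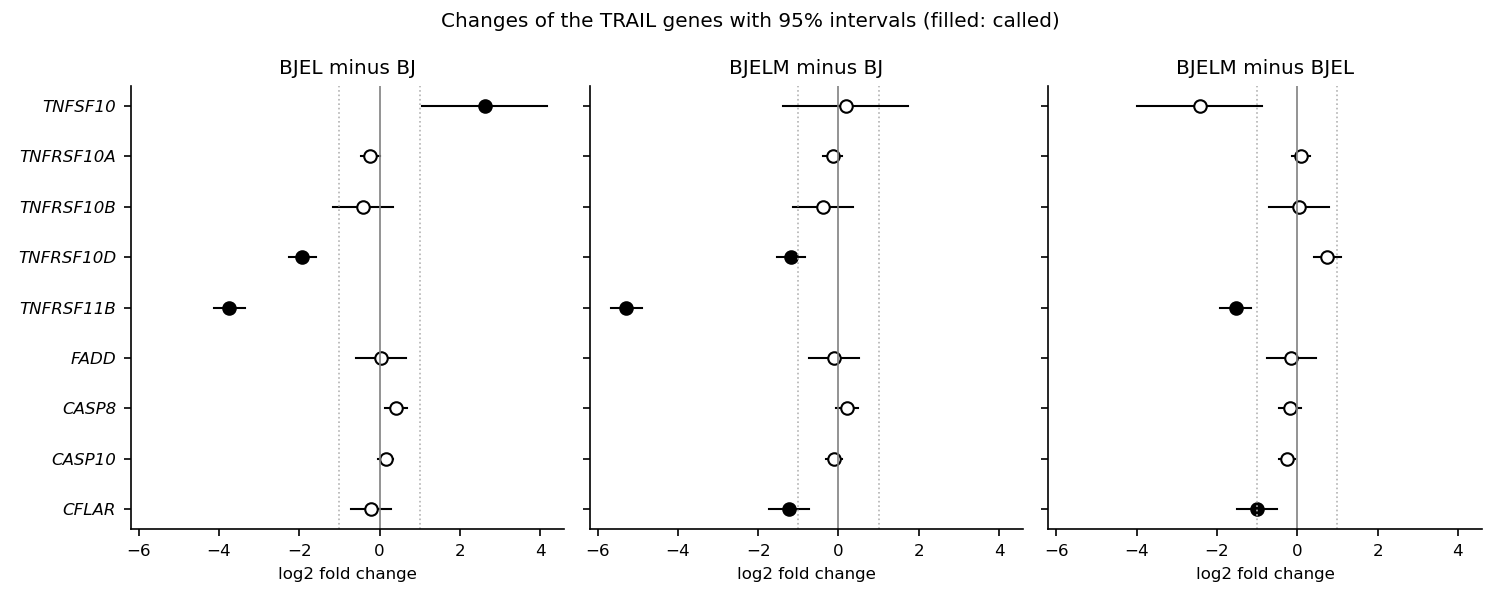
Log2 fold change (horizontal axis) of each TRAIL gene (vertical axis) in the 3 comparisons, as points with 95% intervals, where filled points passed the test and dotted lines mark a 2-fold change. TNFRSF11B lies at -3.74, -5.28 and -1.54, the death receptors and FADD have intervals that span 0, and TNFSF10 has the widest intervals.

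For TNFRSF10D the nearest patterns were those of MACIR, an immune regulator of macrophages (distance 0.275), and PRRX1, a mesenchymal transcription factor (distance 0.410). PRRX1 had signals of 11.39 and 11.43 in BJ, 9.28 and 9.47 in BJEL, and 10.44 and 10.27 on the arrays labelled BJELM. For TNFRSF11B they were IGFBP5, an insulin-like growth factor binding protein (distance 1.08), and GALNT5, a glycosyltransferase that starts O-linked chains (distance 1.19). IGFBP5 averaged 12.77 ± 0.13 for BJ, 9.59 ± 0.58 for BJEL and 7.78 ± 1.1 for the arrays labelled BJELM (SD, n = 2 each). It too was lower at each stage, which follows from its choice by pattern. The fibroblast markers moved in the same direction as these decoys, each line against BJ. In BJEL 4 of 9 passed as lower and 0 as higher, where 2.29% of all genes were lower and 2.89% higher. On the arrays labelled BJELM 6 of 9 passed as lower and 0 as higher, where 4.70% of all genes were lower and 4.09% higher. The median signal of the marker list on an array lay between 12.36 and 12.46 in BJ, 10.89 and 11.01 in BJEL, and 10.71 and 10.99 on the arrays labelled BJELM. The part of this shift in the decoys' falls was not tested.

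**Figure D3:**
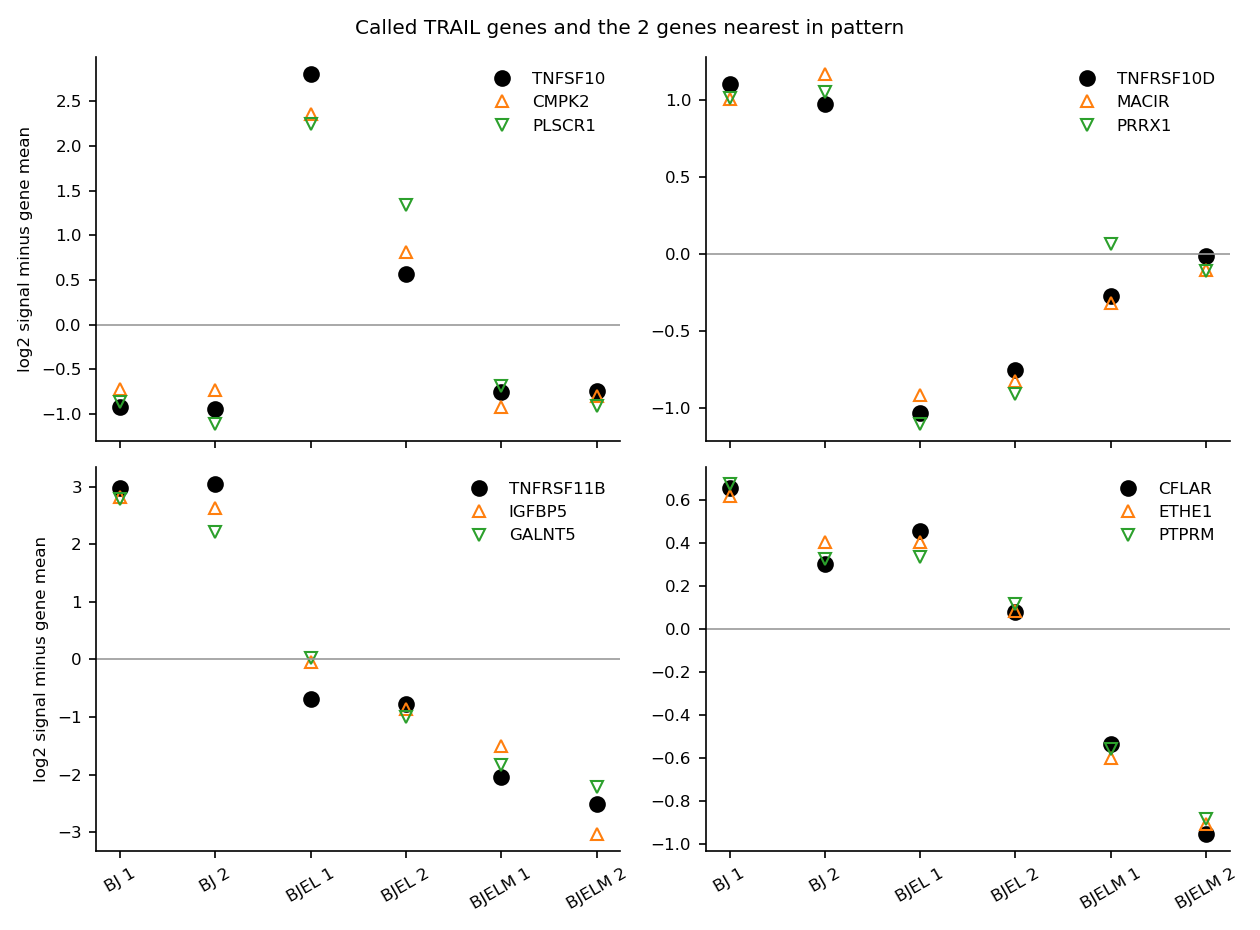
Log2 signal minus each gene's mean (vertical axis) on the 6 arrays (horizontal axis) for the 4 members that passed in any comparison (black circles) and the 2 genes nearest to each in pattern (triangles). TNFSF10 and both of its neighbours peak on BJEL replicate 1, TNFRSF11B and its neighbours step down, and CFLAR and its neighbours drop on the arrays labelled BJELM.

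The genes for the 4 TNFRSF10 receptors lie side by side on chromosome 8, in the order TNFRSF10B, TNFRSF10C, TNFRSF10D, TNFRSF10A. TNFRSF10D was the member of this cluster that fell, and its interval in BJEL against BJ (-2.27 to -1.59) did not overlap those of TNFRSF10B (-1.17 to 0.33) and TNFRSF10A (-0.46 to 0.00), though the difference between the genes' changes was not tested. Of the 3 measured protein-coding genes on each side, 0 passed in BJEL against BJ. On the arrays labelled BJELM against BJ the lysyl oxidase LOXL2 fell (-1.20 ± 0.19, adjusted p = 0.00591), with the other 5 not passing. TNFRSF11B lies on the same chromosome but outside the cluster.

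**Figure D4:**
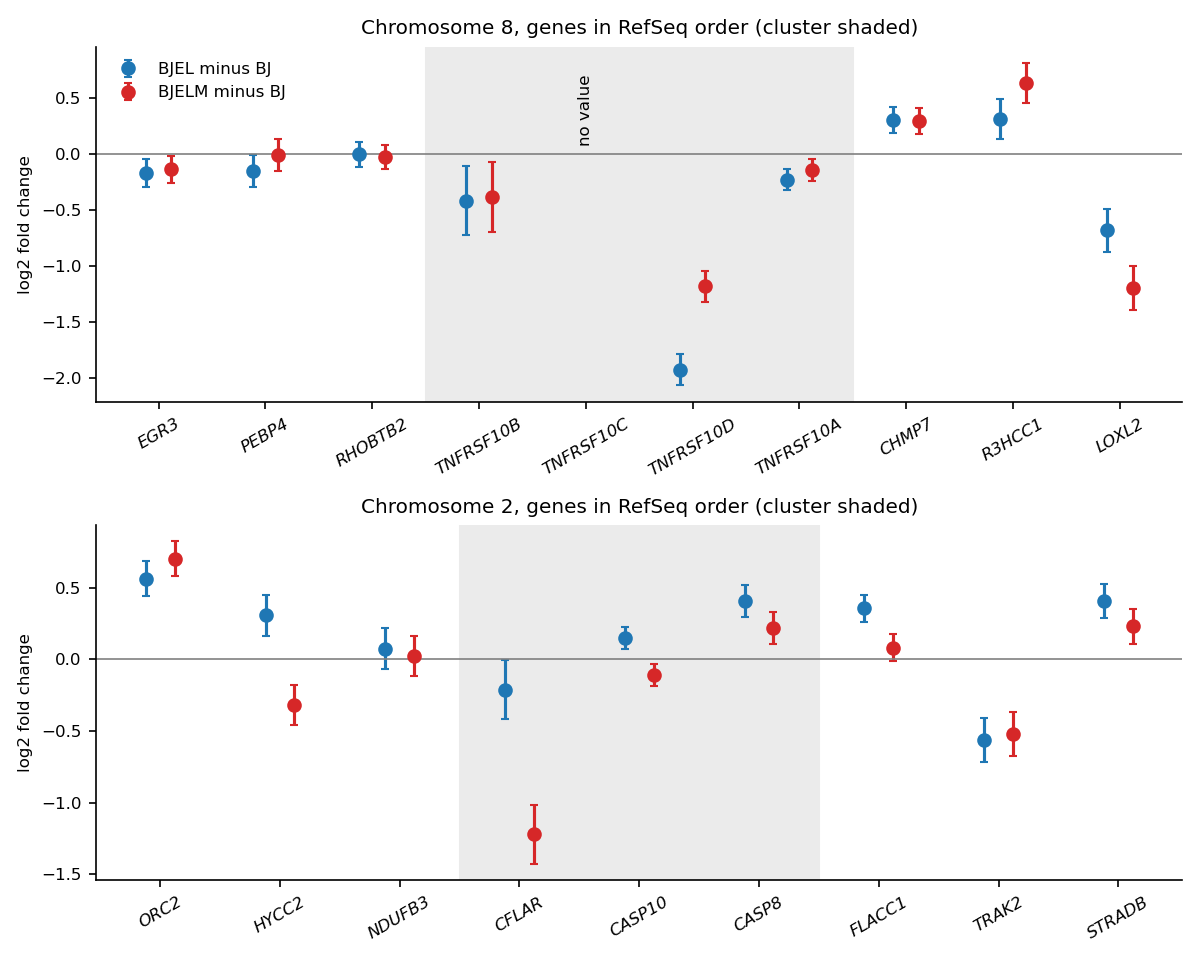
Log2 fold change ± SE (vertical axis) against BJ of the genes in and beside the receptor cluster of chromosome 8 and the CFLAR, CASP10 and CASP8 cluster of chromosome 2, in RefSeq order (horizontal axis, not to scale), with the clusters shaded. TNFRSF10D stands at -1.93 for BJEL and at -1.18 for the arrays labelled BJELM, and CFLAR at -0.21 and at -1.22, while TNFRSF10C has no value.

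The adaptor FADD (probe set 7942168), which links the death domains of the receptors to the caspases, had signals of 9.54 and 9.11 in BJ, 9.61 and 9.12 in BJEL, and 9.48 and 8.95 on the arrays labelled BJELM. The lines overlapped throughout, and array 1 again lay above array 2 in each. The changes were 0.04 ± 0.25 in BJEL (interval -0.58 to 0.65, adjusted p = 0.95) and, for the arrays labelled BJELM, -0.11 ± 0.25 (interval -0.72 to 0.50, adjusted p = 0.829), each against BJ.

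CASP8 (probe set 8047419), the main initiator caspase of this pathway, had signals of 7.42 and 7.41 in BJ, 7.95 and 7.70 in BJEL, and 7.71 and 7.57 on the arrays labelled BJELM. Both derived lines lay above BJ on every array and overlapped each other. The change was 0.41 ± 0.11 in BJEL (interval 0.14 to 0.68, adjusted p = 0.0551) and, for the arrays labelled BJELM, 0.22 ± 0.11 (interval -0.05 to 0.49, adjusted p = 0.218), each against BJ and neither past the test. CASP10 (probe set 8047403), its close relative, had signals of 4.97 and 4.97 in BJ, 5.13 and 5.11 in BJEL, and 4.85 and 4.87 on the arrays labelled BJELM. The arrays labelled BJELM stood at -0.26 ± 0.078 against BJEL (interval -0.45 to -0.07, adjusted p = 0.0945), which did not pass. Every group mean of CASP10 lay below 6, and whether they stood above background was not tested.

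CFLAR (Entrez 8837, probe set 8047381), which encodes the caspase-like protein that holds back caspase-8, had signals of 8.03 and 7.68 in BJ, 7.83 and 7.45 in BJEL, and 6.84 and 6.42 on the arrays labelled BJELM. BJ and BJEL overlapped, and both arrays labelled BJELM lay below the other 4. CFLAR fell 2.33-fold on the arrays labelled BJELM against BJ (-1.22 ± 0.20, interval -1.72 to -0.72, adjusted p = 0.0067) and 2.01-fold against BJEL (-1.01 ± 0.20, interval -1.51 to -0.51, adjusted p = 0.0318). In BJEL against BJ it stood at -0.21 ± 0.20 (interval -0.71 to 0.29, adjusted p = 0.552). The call against BJ was kept without any single array (-1.43 to -1.01). The call against BJEL was lost with BJEL replicate 1 left out (-0.82, adjusted p = 0.161), with BJEL replicate 2 left out (-1.20, adjusted p = 0.0623) and with BJELM replicate 2 left out (-0.80, adjusted p = 0.113), and it fell under the 2-fold minimum with quantile normalization (-0.97) and median centring (-0.97).

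A second probe set lists CFLAR alone (8047401). Its signals were 7.90 and 7.48 in BJ, 6.96 and 6.39 in BJEL, and 5.33 and 5.28 on the arrays labelled BJELM, so that no line overlapped another. Tested among all 33297 probe sets, it fell on the arrays labelled BJELM against BJ (-2.38 ± 0.23, adjusted p = 0.00335) and against BJEL (-1.37 ± 0.23, adjusted p = 0.0413), and in BJEL against BJ it stood at -1.01 ± 0.23 (adjusted p = 0.0602). Both probe sets of CFLAR were thus lowest on the arrays labelled BJELM, and the second was also lower in BJEL than in BJ on every array. The genes nearest to the main CFLAR probe set in pattern were ETHE1, a mitochondrial sulfur dioxygenase (distance 0.143), and PTPRM, a receptor tyrosine phosphatase (distance 0.152). CFLAR, CASP10 and CASP8 lie side by side on chromosome 2, and 0 of the 3 measured genes on each side of them passed in either comparison with BJ.

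Of 21 measured partners in the extrinsic pathway, 0 rose and 1 fell in BJEL against BJ (median -0.02), 0 rose and 1 fell on the arrays labelled BJELM against BJ (median -0.37), and 0 rose and 2 fell on the arrays labelled BJELM against BJEL (median -0.33), where 5.18%, 8.79% and 2.68% of all genes passed. With limma 6, 12 and 8 of the 21 had an unadjusted p under 0.05. Another 3, 7 and 4 calls at adjusted p under 0.05 had a change of less than 2-fold. Of all 18417 genes, 3228, 5195 and 1992 had an adjusted p under 0.05 at any fold. The share of all genes with an unadjusted p under 0.05 is not given, so such counts in this list and those below are not set against it. FAS, the death receptor for FAS ligand, was the gene that fell in each comparison, with signals of 8.82 and 9.09 in BJ, 7.39 and 7.23 in BJEL, and 6.41 and 6.19 on the arrays labelled BJELM. Its change was -1.64 ± 0.13 in BJEL against BJ (adjusted p = 0.00129), -2.66 ± 0.13 on the arrays labelled BJELM against BJ (adjusted p = 0.000168) and -1.01 ± 0.13 on the arrays labelled BJELM against BJEL (adjusted p = 0.00904). The lines did not overlap for FAS, in the same order as for TNFRSF11B. CYLD, a deubiquitinase of receptor complexes, fell on the arrays labelled BJELM against BJEL (-1.22 ± 0.09, adjusted p = 0.00206).

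Of 23 other measured receptors of the TNF receptor superfamily, 1 rose and 3 fell in BJEL against BJ (median -0.21), 1 rose and 2 fell on the arrays labelled BJELM against BJ (median -0.10), and 2 rose and 1 fell on the arrays labelled BJELM against BJEL (median 0.08), beside the same shares of all genes. With limma 10, 12 and 11 of the 23 had an unadjusted p under 0.05. FAS is counted in this list too. TNFRSF9 (4-1BB), a costimulatory receptor best known on T cells, had signals of 5.92 and 5.91 in BJ, 7.25 and 6.91 in BJEL, and 8.70 and 8.35 on the arrays labelled BJELM. TNFRSF9 rose by 1.16 ± 0.16 in BJEL (limma, adjusted p = 0.00593) and by 2.61 ± 0.16 on the arrays labelled BJELM (adjusted p = 0.000275), each against BJ, so that its order was the reverse of that of TNFRSF11B. EDA2R, a receptor for an ectodysplasin isoform, fell in BJEL (-1.66 ± 0.37, adjusted p = 0.0284) and on the arrays labelled BJELM (-2.43 ± 0.37, adjusted p = 0.00462), each against BJ. TNFRSF21 (DR6), which has a death domain, fell in BJEL against BJ (-1.22 ± 0.12, adjusted p = 0.00189), and on the arrays labelled BJELM it stood at -0.47 ± 0.12 against BJ. TNFRSF8 (CD30), named after its values were seen, rose on the arrays labelled BJELM against BJEL (1.10 ± 0.15, adjusted p = 0.011).

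**Figure D5:**
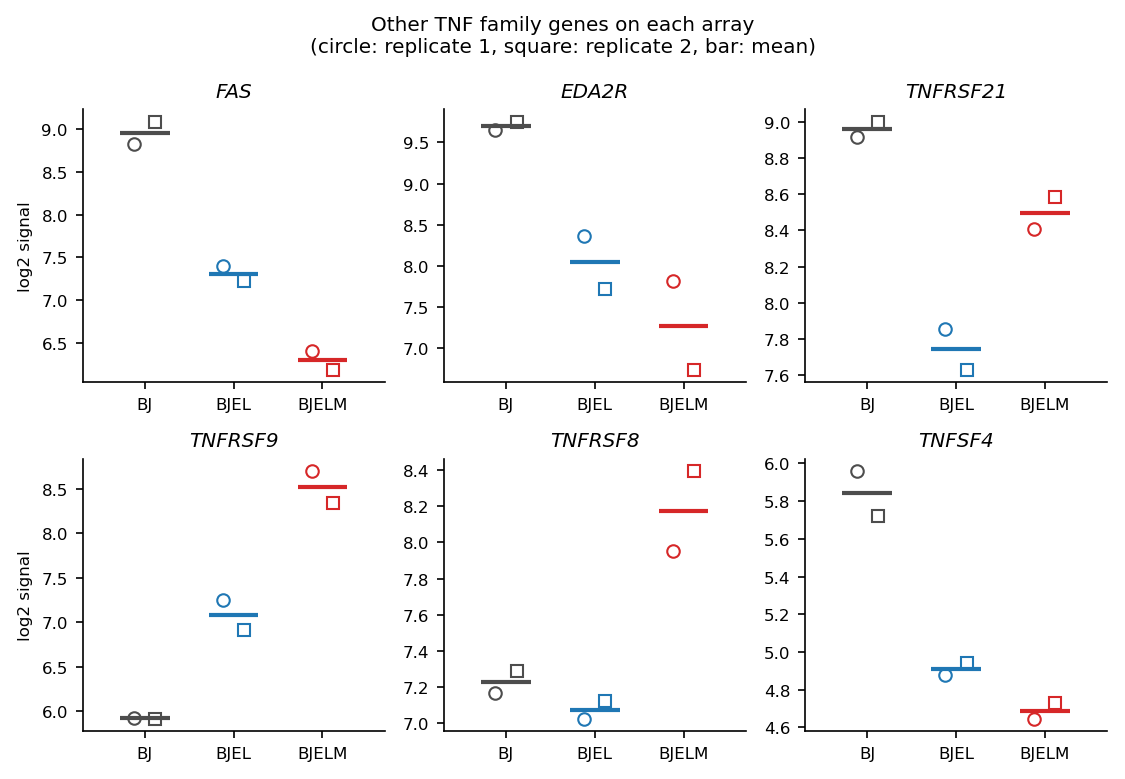
Log2 signal (vertical axis, a scale of its own for each gene) of 6 other TNF superfamily genes on the 6 arrays, by line (horizontal axis), with circles for replicate 1, squares for replicate 2 and bars for the mean of the 2 arrays. FAS, EDA2R and TNFSF4 are highest in BJ, TNFRSF9 is highest on the arrays labelled BJELM, and TNFRSF21 is lowest in BJEL.

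Among 14 other measured ligands of the superfamily, 0 rose in any comparison and 1 fell, TNFSF4 (OX40 ligand), on the arrays labelled BJELM against BJ (-1.15 ± 0.11, adjusted p = 0.000911). Of all genes 2.89% rose in BJEL against BJ and 4.70% fell on the arrays labelled BJELM against BJ. With limma 1, 1 and 2 of them had an unadjusted p under 0.05 in BJEL against BJ, on the arrays labelled BJELM against BJ and on the arrays labelled BJELM against BJEL. Their medians were -0.08 in BJEL against BJ, 0.01 on the arrays labelled BJELM against BJ and 0.05 on the arrays labelled BJELM against BJEL. TNFSF13B (BAFF), a B cell survival factor named after its values were seen, averaged 5.20 ± 0.065 for BJ, 6.08 ± 1.3 for BJEL and 5.01 ± 0.12 for the arrays labelled BJELM (SD, n = 2 each). Like TNFSF10 it was highest on BJEL replicate 1, and it did not pass in BJEL against BJ (0.88 ± 0.53).

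Of the transcription factors known to act on TRAIL pathway genes, 8 of 11 were measured. In BJEL against BJ 0 rose and 0 fell (median 0.47), and on the arrays labelled BJELM against BJ 0 rose and 1 fell (median 0.07). On the arrays labelled BJELM against BJEL 0 rose and 2 fell (median -0.31). Of all genes 5.18%, 8.79% and 2.68% passed in these comparisons, with medians of -0.02, 0.01 and 0.03. With limma, 5, 2 and 4 of the 8 had an unadjusted p under 0.05 in these comparisons, and the share of all genes at that p is not given. IRF9, the DNA-binding part of the interferon-activated complex, had signals of 9.15 and 8.49 in BJ, 10.12 and 9.59 in BJEL, and 7.80 and 7.02 on the arrays labelled BJELM. It fell on the arrays labelled BJELM against BJEL (-2.44 ± 0.34, adjusted p = 0.0105) and against BJ (-1.41 ± 0.34, adjusted p = 0.0245), and in BJEL against BJ it stood at 1.03 ± 0.34 (adjusted p = 0.0921). IRF7, which drives interferon genes, fell on the arrays labelled BJELM against BJEL (-1.01 ± 0.19, adjusted p = 0.026). For IRF9 and IRF7, as for TNFSF10, BJEL replicate 1 was the highest array. Both factors were also higher on array 1 than on array 2 within every line, as were 29.2% of all genes. IRF7 had 8.80 and 8.21 for BJEL, 7.64 and 7.48 for BJ, and 7.53 and 7.47 for the arrays labelled BJELM. For TNFSF10 array 1 exceeded array 2 by 2.23 with BJEL, by 0.02 with BJ and by -0.01 with the arrays labelled BJELM. The shared highest array thus does not show a shared pattern.

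Of 8 enzymes that add sugars to death receptors or to proteins of that kind, GALNT3, which starts O-linked chains, rose in BJEL against BJ (1.27 ± 0.14, adjusted p = 0.00306) and fell on the arrays labelled BJELM against BJEL (-1.78 ± 0.14, adjusted p = 0.00248). Its signals were 6.13 and 6.22 in BJ, 7.64 and 7.24 in BJEL, and 5.68 and 5.65 on the arrays labelled BJELM. The other 7 did not pass in any comparison, and in BJELM against BJ, where 0 of the 8 passed, limma gave 3 an unadjusted p under 0.05. The list's medians were -0.21 in BJEL against BJ, -0.14 on the arrays labelled BJELM against BJ and 0.09 on the arrays labelled BJELM against BJEL. Taken in that order, the medians over all genes were -0.02, 0.01 and 0.03, and the shares of all genes that passed were 5.18%, 8.79% and 2.68%.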

How the data were processed

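The authors deposited log2 signals of 33297 probe sets, made by RMA from all 6 scans at once (Expression Console 1.3.1 of Affymetrix, default settings, per the submitters' notes). RMA removes background, equalizes the distributions of the arrays and turns the probes of a probe set into 1 value, so the arrays share a scale. The build of the array annotation is not given in the sources used here. Depth does not apply to arrays, and their number limits precision.

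A platform table named 19460 probe sets with 1 symbol, 1754 with several and 12083 not at all. Each of 18417 genes was represented by its single-symbol probe set with the highest mean, and 18389 were matched to RefSeq (GRCh38.p14) by Entrez ID for symbols and gene order. Other listed genes with no such probe set were not analysed here.

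Differences were fitted to all 6 arrays by limma 3.58.1 (R 4.3.3), with a mean per line and no other term (3 residual and 3.13 prior degrees of freedom), two-sided, with Benjamini-Hochberg values over 18417 genes. The fit was tested on simulated data. The members and lists were chosen with earlier results of these data known. All members are named, together with up to 4 called genes of each other list, the 2 genes nearest to each called member in pattern, and called neighbours. Promoter windows come from RefSeq (GRCh38.p14). Alternatives were single arrays left out, other fits, scalings, filters, probe set choices and thresholds, and the methods' t-test in its plain form.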

Additional observations from a re-analysis of the deposited data

How the results depend on the processing

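The falls of TNFRSF11B in all 3 comparisons, of TNFRSF10D in both comparisons with BJ, and of CFLAR on the arrays labelled BJELM against BJ, kept direction and call under every alternative fit run except the methods' t-test. After Benjamini-Hochberg adjustment that t-test called 0 members and 0 genes in each comparison, against 465, 880 and 231 genes at unadjusted p, in the order BJEL against BJ, BJELM against BJ, then BJELM against BJEL. At unadjusted p it called 2, 3 and 0 members. With no fold minimum limma called 3228, 5195 and 1992 genes. In BJELM against BJEL the members called numbered 1 rather than 2 with quantile normalization, median centring, every probe set tested, or adjusted p under 0.01, since CFLAR was lost. TNFSF10 in BJEL against BJ lost its call with every probe set tested (adjusted p = 0.0891) and with only both compared lines fitted (adjusted p = 0.0553). In BJELM against BJEL it passed with an intensity trend (adjusted p = 0.0476) and with genes above a group mean of 6 (adjusted p = 0.042), a filter it passed through BJEL alone. Without 1 array the members called numbered 2 to 3, 3 to 3 and 1 to 2, and the genes called 718 to 1026, 1393 to 1782 and 347 to 599. The lowest member count, 1, came without BJELM replicate 2. The sign of FADD turned with single arrays left out (-0.21 to 0.28, -0.38 to 0.15 and -0.41 to 0.12) and with quantile normalization in BJEL against BJ (-0.027), and that of TNFRSF10B in BJELM against BJEL (-0.31 to 0.38), all uncalled. By their titles, replicates of the lines share only a number, but arrays of equal number varied alike, which the main fit left out. Deviations of equal numbers correlated across genes at 0.45 for BJEL with BJ, 0.48 for BJELM with BJ and 0.55 for BJELM with BJEL, and with the number as a replicate block 993, 1644 and 544 genes and 3, 3 and 3 members were called, TNFSF10 joining in BJELM against BJEL (-2.44, adjusted p = 0.0129). In that blocked fit TNFRSF10B had adjusted p = 0.0115 in BJEL (-0.42) and adjusted p = 0.0117 in BJELM (-0.39), each against BJ, CASP8 had 0.0122 in BJEL against BJ, and CASP10 had 0.0473 in BJELM against BJEL, all under the fold minimum. Every group mean of CASP10 lay below 6.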

Other observations

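For TNFRSF10B, FADD, CASP8 and CFLAR the array numbered 1 lay above the array numbered 2 in each of the 3 lines. For TNFRSF10B the gap came to 0.45 with BJ, 0.69 with BJEL and 0.64 with the arrays labelled BJELM. In the same order of lines it was 0.43, 0.49 and 0.53 for FADD and 0.35, 0.38 and 0.42 for CFLAR. TNFRSF10A lay higher on array 2 in all 3 lines. Over all genes, 29.2% were higher on array 1 in all 3 lines and 17.9% were higher on array 2 in all 3.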
